A study of Mus musculus with 8 samples.

Results

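Potassium channel genes were taken as the 93 of the 30211 genes in the deposited count matrices whose symbols join Kcn to a channel family letter, after 5 antisense and overlapping transcript names were set aside. By symbol they comprise 30 voltage-gated pore subunits (Kcna, Kcnb, Kcnc, Kcnd, Kcnh and Kcnq), 10 modifier subunits (Kcnf, Kcng, Kcns and Kcnv), 8 calcium- or sodium-activated subunits (Kcnma, Kcnn, Kcnt and Kcnu), 15 inward rectifiers (Kcnj), 14 tandem-pore leak channels (Kcnk) and 16 auxiliary subunits (Kcnab, Kcne, Kcnip and Kcnmb). The rule uses symbols alone, although it was set with earlier results of these data known.

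Potassium channels carry potassium out of the cell along its gradient. In neurons the voltage-gated and calcium-activated channels repolarise the action potential and set how fast a cell can fire, and the leak and inwardly rectifying channels hold the resting potential. Modifier subunits form no channel alone but alter the Kcnb channels they join, and auxiliary subunits change the gating or surface delivery of a pore. In glia, inward rectifiers and tandem-pore channels are known for the strongly negative resting potential and for clearing potassium released by active neurons.

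The study sequenced single nuclei of mouse hippocampus to learn how loss of GSAP, a protein that regulates γ-secretase, changes each cell type, with and without an amyloid-producing transgene. WT and GKO (the GSAP knockout) were represented by 3 mice each at 7 months of age, and J20;WT and J20;GKO by 1 mouse each at 6 months. GKO mice lack GSAP in every tissue: a conditional allele with loxP sites around exons 9 to 11 was crossed to CMV-Cre, so the cells developed without it. J20 mice carry human APP with the Swedish and Indiana mutations under the PDGFB promoter, which drives it mainly in neurons. The age of the J20 mice differed from that of the others, and the sets of dates carried in the deposited files put WT 1 and GKO 1 in a first set, WT 2, WT 3, GKO 2, GKO 3 and J20;GKO in a second, and J20;WT in a set of its own.

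After filtering, 32041 nuclei remained, with 21020159 to 43310978 unique molecular identifiers (UMIs, one per captured RNA molecule) per library and library medians of 4579 to 6438.5 per nucleus. Gsap itself was at 22.3 to 23.0 UMIs per 1000000 UMIs of its library (CPM) in WT and 19.8 to 22.0 in GKO libraries, ranges that lay close to each other without overlap. The reads start at the 3′ end of transcripts and need not cover the deleted exons, so this does not check the knockout, and the mice are called by their labels. The libraries shared at most 21 cell barcodes. Nuclei were grouped with the potassium channel genes left out of the features, and groups were named from marker genes, so every type name below means a marker-defined, type-like group. The 6 broad types compared held 11984 excitatory, 1514 inhibitory, 2925 astrocyte, 7074 oligodendrocyte, 1101 oligodendrocyte precursor (OPC) and 2072 microglia nuclei, and 4716 nuclei stayed unnamed. UMIs were summed per mouse and type. Levels are given as CPM of the summed UMIs of 1 mouse and type, and in sums of this kind fewer cells of a mixed-in type and less RNA per nucleus cannot be told apart.

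Potassium channel transcripts took the largest share of UMIs in excitatory neurons, 1.86% ± 0.119 (SD, n = 8 mice), followed by inhibitory neurons at 1.21% ± 0.108 and OPCs at 0.956% ± 0.0544. Astrocytes gave 0.544% ± 0.0819, oligodendrocytes 0.342% ± 0.0263 and microglia 0.233% ± 0.0403. The 8 mice of excitatory and of inhibitory neurons did not overlap with each other or with any glial type. A single gene made much of the share in excitatory neurons: Kcnip4, an auxiliary subunit of the Kv4 channels that carry A-type current, supplied 37.4 to 45.7% of their channel UMIs. It supplied at most 19.9% in inhibitory neurons, 24.7% in astrocytes, 17.1% in oligodendrocytes, 19.1% in microglia and 5.36% in OPCs. Neuronal subtypes described below differed. Vip interneurons had 31.1 to 45.8% from Kcnip4, and their channel share of 1.52 to 2.03% overlapped with the excitatory one. The other interneuron groups had at most 23.2%. Deep-layer excitatory neurons had as little as 7.17% from Kcnip4, and all their mice lay below the broad excitatory range. Their channel share, 1.03 to 1.38%, overlapped with the inhibitory one. The other named excitatory subtypes had at least 30.4% from Kcnip4.

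**Figure D1:**
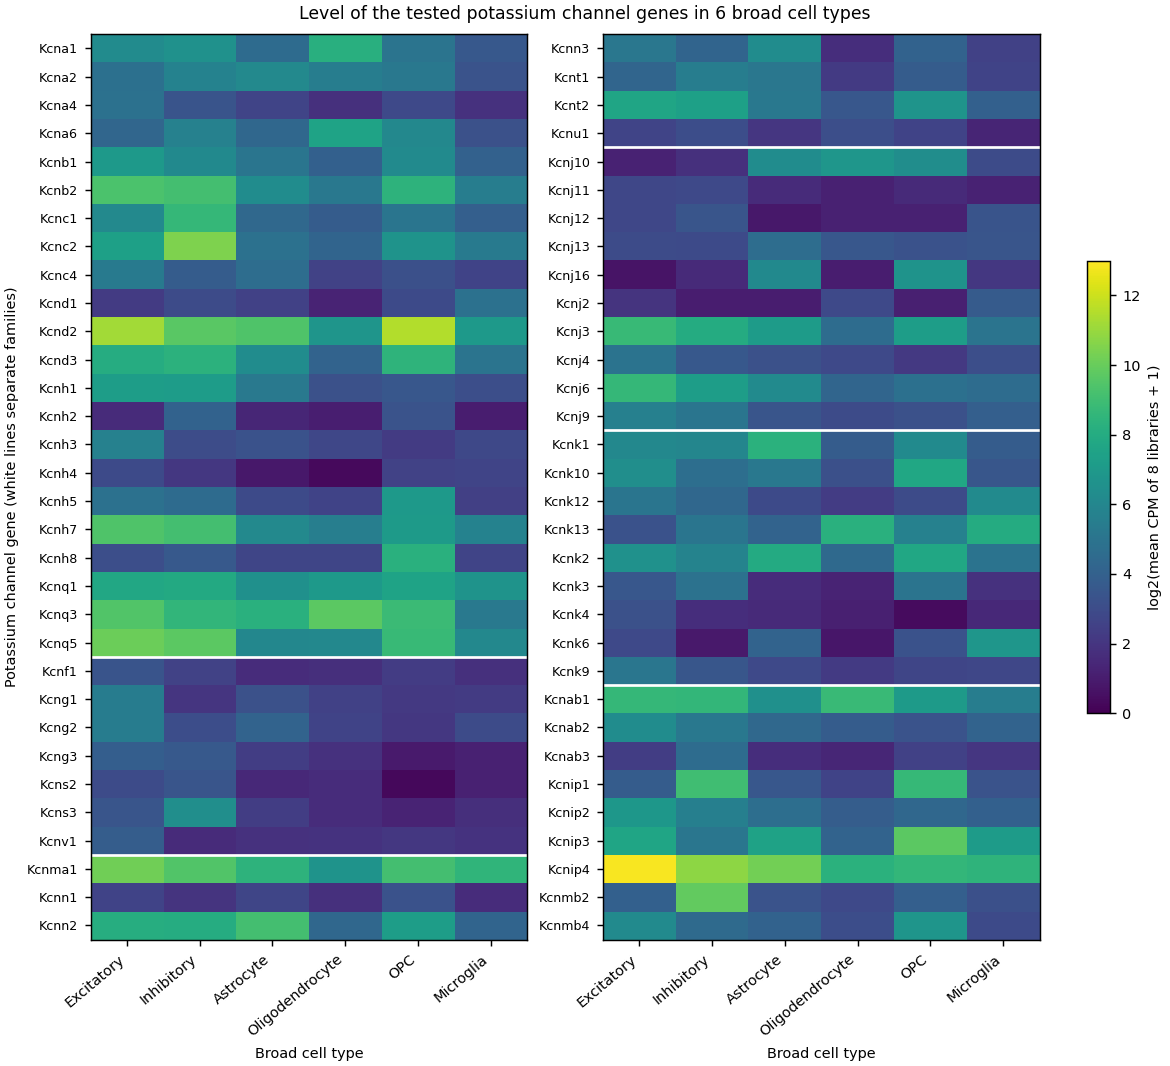
Mean level of 64 of the 67 tested potassium channel genes (log2 of CPM + 1) in the 6 broad types, averaged over the 8 mice and grouped by channel family. Oligodendrocytes and microglia are dark for most genes, and single bright cells such as Kcnh8 in OPCs and Kcnk6 in microglia stand out from their rows.

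Of the 93 genes, 67 passed the filter on low counts between broad types. The other 26 had 1 to 794 UMIs over the named types, and 6 of them (Kcnk16, Kcnj1, Kcnk15, Kcna10, Kcnj15 and Kcna7) had under 10. The 67 can include genes that passed only because one type holds them. Ranked by mean CPM, 27 of the 67 were highest in excitatory neurons, 13 in inhibitory neurons, 10 in OPCs, 7 in oligodendrocytes, 6 in astrocytes and 4 in microglia. The first place was the same in all 8 mice for 18, 7, 6, 3, 3 and 3 of them.

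Types were compared within mice by edgeR's quasi-likelihood test with the mouse as a block and Benjamini-Hochberg adjustment over all genes tested, and a gene was called where the adjusted p was under 0.05 and the log2 difference passed 1 in size. Between inhibitory and excitatory neurons 35 of the 67 genes were called, 13 higher and 22 lower, where 18.0% of all 14010 genes were called (9.21% higher, 8.77% lower). Against the mean of the other 5 broad types, astrocytes had 12 higher and 18 lower channel genes, where 23.0% of all genes were called, 14.3% higher and 8.68% lower. Oligodendrocytes had 8 and 44 (34.0% of all genes, 11.9% higher and 22.1% lower). OPCs had 18 and 16 (21.7%, 13.3% higher and 8.4% lower), and microglia 7 and 45 (41.9%, 16.1% higher and 25.8% lower). The median log2 difference of the 67 genes was -1.64 in oligodendrocytes and -1.62 in microglia, against -0.04 and -0.13 over all genes. In OPCs it was 0.17 (all genes -0.05), in astrocytes -0.33 (all genes -0.06), and for inhibitory minus excitatory neurons -0.44 (all genes 0.03).

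Among 21 other potassium-handling genes listed beside the channels (sodium pumps, potassium-chloride cotransporters and channel partners such as Dpp6), 16 were tested in each of these comparisons. Of these, 1 was higher and 2 lower in inhibitory than in excitatory neurons. In astrocytes 4 were higher and 5 lower, and OPCs gave the same 2 counts. In oligodendrocytes 2 were higher and 9 lower, and in microglia 2 were higher and 11 lower.

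Neuronal RNA that leaks into other droplets can give glia a low level of neuronal genes. The summed level of 6 neuronal reference genes in glia was 11.7 to 22.2% of that in excitatory neurons of the same library in astrocytes, 7.11 to 9.99% in oligodendrocytes, 8.28 to 15.9% in OPCs and 7.85 to 14.2% in microglia, highest in WT 1 for all but oligodendrocytes, where J20;WT was higher. By the same ratio, 8 of the 67 channel genes in astrocytes, 13 in oligodendrocytes, 11 in OPCs and 15 in microglia lay at or below this reference. Kcnip4 was among them in all 4 glial types. Its glial levels are therefore not read as glial expression, and whether they come from leaked RNA was not tested.

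Among the voltage-gated pore subunits, the 25 tested genes split by cell type. Oligodendrocytes had 19 lower and 3 higher, microglia 21 lower and 2 higher, and OPCs 8 higher and 2 lower. Astrocytes had 9 lower and 3 higher, and inhibitory against excitatory neurons 6 lower and 5 higher, so that 13 and 14 of the 25 were not called there. The fast-repolarising Kv3 gene Kcnc2 reached 1090, 1439 and 1522 CPM (lowest, median and highest of the 8 mice) in inhibitory and 126, 163 and 232 in excitatory neurons, a log2 difference of 3.00 ± 0.187 (SE, adjusted p = 2.83e-17). Its relative Kcnc1 was at 303 to 526 CPM in inhibitory and 55.8 to 76.1 in excitatory neurons (log2 2.45 ± 0.082, adjusted p = 1.84e-31). For both genes the inhibitory values of all 8 mice lay above every excitatory value.

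Kcnh3, an ether-à-go-go-like channel of the forebrain, was lower in inhibitory neurons, at 4.88 to 9.38 CPM in inhibitory and 44.1 to 60.8 in excitatory neurons (log2 -2.91 ± 0.14, adjusted p = 1.07e-24). Kcnd2, the main Kv4 pore subunit of hippocampal dendrites, had 1914 to 2944 CPM in excitatory and 627 to 1108 in inhibitory neurons (log2 -1.61 ± 0.11, adjusted p = 1.68e-18). OPCs held somewhat more Kcnd2 than excitatory neurons, with 2524, 2831 and 3439 CPM. They were at 110 to 141% of the excitatory level of the same mouse, although the ranges over mice overlapped. Oligodendrocytes had only 79.97 to 164.5 CPM.

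The axonal Kv1 subunits Kcna1 and Kcna6 were highest in oligodendrocytes. Kcna1 measured 187, 290 and 375 CPM there, against 63.4 to 87.3 in excitatory and 67.4 to 111.8 in inhibitory neurons, and 2.32 to 22.0 in microglia. Its difference from the mean of the other types was 3.17 ± 0.087 on the log2 scale (adjusted p = 1.24e-33). Kcna6 measured 136 to 251 CPM in oligodendrocytes and 12.95 to 21.3 in excitatory neurons (log2 3.00 ± 0.072, adjusted p = 3.87e-39). No other broad type overlapped with oligodendrocytes for either gene. The 2 genes lie 61944 bases apart on chromosome 6, and another Kv1 gene, Kcna5, lies 104984 bases from Kcna1 but had only 58 UMIs in the named types. Kcnq3, an M-channel subunit of neurons, was likewise not low in oligodendrocytes: it had 781 to 929 CPM there, 496 to 978 in excitatory neurons and 14.1 to 83.0 in microglia (log2 1.81 ± 0.075 for oligodendrocytes and -3.92 ± 0.133 for microglia, adjusted p = 3.06e-28 and 3.18e-32).

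The ether-à-go-go family was mixed in OPCs. Kcnh1 was lower there than in the mean of the other 5 broad types (log2 -1.68 ± 0.263, edgeR adjusted p = 6.15e-07). Kcnh3 and Kcnh7 had medians of 6.94% and 18.8% of their excitatory level in OPCs. Kcnh8 and Kcnh5, in contrast, were higher in OPCs than in the other 5 broad types. Kcnh8 measured 228, 311 and 363 CPM in OPCs and at most 13.3 CPM in any library of the other 5 broad types, a log2 difference of 5.42 ± 0.075 (adjusted p = 2.53e-49). Kcnh5 measured 108 to 154 CPM in OPCs and at most 40.5 in excitatory neurons, the next type (log2 3.67 ± 0.122, adjusted p = 9.61e-32). Both sets of OPC values stood clear of every library of the other 5 broad types. An unnamed group of 453 nuclei, with markers nearest to excitatory neurons, also had Kcnh8 among its leading genes and was in no comparison. In oligodendrocytes, the descendants of these cells, Kcnh8 was at 4.20 to 6.65 CPM.

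The promoters of 3 genes with different home types are shown for their sequence context, each from 250 bases before to 50 bases after the annotated start (RefSeq, GRCm38.p6, written 5′ to 3′ on the gene's strand). Capitals mark GC boxes (GGGCGG) and the SOX core motif ACAAAG on either strand. Of 32851 promoters of this length, 35.7% hold a GC box and 18.7% the SOX core. Among the 93 promoters that the table lists for 68 of the channel genes, 45 (48.4%) and 14 (15.1%) do. Kcnh8 is the OPC gene above, Kcnc1 the Kv3 gene and Kcnmb2 the auxiliary gene of inhibitory neurons.
Kcnh8 promoter, chr17:52602459-52602758, plus strand: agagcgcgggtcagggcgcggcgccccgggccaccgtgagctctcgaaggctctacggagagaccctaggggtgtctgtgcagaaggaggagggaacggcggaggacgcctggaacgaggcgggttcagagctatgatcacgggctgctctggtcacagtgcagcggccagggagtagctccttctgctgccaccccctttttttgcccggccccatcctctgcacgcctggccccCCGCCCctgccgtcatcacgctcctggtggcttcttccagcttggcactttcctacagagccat
Kcnc1 promoter, chr7:46396218-46396517, plus strand: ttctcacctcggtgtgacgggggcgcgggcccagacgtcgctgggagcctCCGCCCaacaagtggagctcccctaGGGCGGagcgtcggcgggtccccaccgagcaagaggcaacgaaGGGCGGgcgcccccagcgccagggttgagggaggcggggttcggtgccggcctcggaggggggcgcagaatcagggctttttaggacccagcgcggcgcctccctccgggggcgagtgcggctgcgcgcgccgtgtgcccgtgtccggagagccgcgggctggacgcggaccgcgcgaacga
Kcnmb2 promoter, chr3:31902453-31902752, plus strand: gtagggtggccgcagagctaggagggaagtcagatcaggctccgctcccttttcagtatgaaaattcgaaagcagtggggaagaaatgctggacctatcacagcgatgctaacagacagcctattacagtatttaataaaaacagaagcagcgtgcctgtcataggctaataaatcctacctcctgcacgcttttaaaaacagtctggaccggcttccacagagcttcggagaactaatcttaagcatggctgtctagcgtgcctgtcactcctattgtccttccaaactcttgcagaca

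The Kcnc1 promoter holds 3 GC boxes and 41 CG dinucleotides, above the upper quartile of 20 over all promoters, and the Kcnh8 promoter 1 GC box and 21 CG dinucleotides. The Kcnmb2 promoter holds neither motif and 9 CG dinucleotides, near the median of 7. These counts describe the letters in the window and say nothing of what binds there.

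Of the 7 modifier subunits tested, 3 were lower, 1 higher and 3 not called in inhibitory against excitatory neurons. Kcng1 had 31.8 to 56.6 CPM in excitatory and 0.977 to 6.27 in inhibitory neurons (log2 -3.97 ± 0.206, adjusted p = 2.19e-22), and Kcng2 27.3 to 52.0 against 3.17 to 9.92 (log2 -2.65 ± 0.145, adjusted p = 2.19e-22). Kcnv1, at 9.70 to 18.2 CPM against 0.488 to 3.81, followed them (log2 -2.80 ± 0.203, adjusted p = 1.55e-17). Kcns3 was the higher one, at 54.4 to 118 CPM in inhibitory and 7.72 to 14.0 in excitatory neurons (log2 3.02 ± 0.134, adjusted p = 1.25e-24). For none of the 4 genes did the mice of the 2 neuron types overlap. None of the 7 modifiers tested was higher in any glial type, and 5 were lower in OPCs.

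Of the 7 calcium- or sodium-activated subunits tested, 3 were higher and none lower in astrocytes than in the mean of the other types. They included 2 of the 3 small-conductance channels tested, which hyperpolarise a neuron after a spike. The third, Kcnn1, was not called there (log2 0.69 ± 0.233, adjusted p = 0.00851), at 3.85 to 9.37 CPM. Kcnn3 had 45.0, 83.7 and 99.1 CPM in astrocytes, 21.95 to 48.6 in excitatory neurons and 0.546 to 3.89 in oligodendrocytes, with a log2 difference of 2.97 ± 0.176 (adjusted p = 1.55e-18). The astrocyte and excitatory ranges overlapped at their ends. Kcnn2 had 341, 575 and 731 CPM in astrocytes and 249 to 301 in excitatory neurons (log2 2.73 ± 0.095, adjusted p = 1.12e-28), without overlap between these 2 types. A single inhibitory library, GKO 1 at 388.5 CPM, reached into the astrocyte range. Kcnma1, the large-conductance channel opened by calcium and voltage, was called only as lower in oligodendrocytes (log2 -2.38 ± 0.086, adjusted p = 7.63e-31). The sodium-activated Kcnt1 was higher in astrocytes (log2 1.61 ± 0.176) and in inhibitory over excitatory neurons (log2 1.22 ± 0.154), with adjusted p = 7.7e-11 and 3.76e-09.

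**Figure D2:**
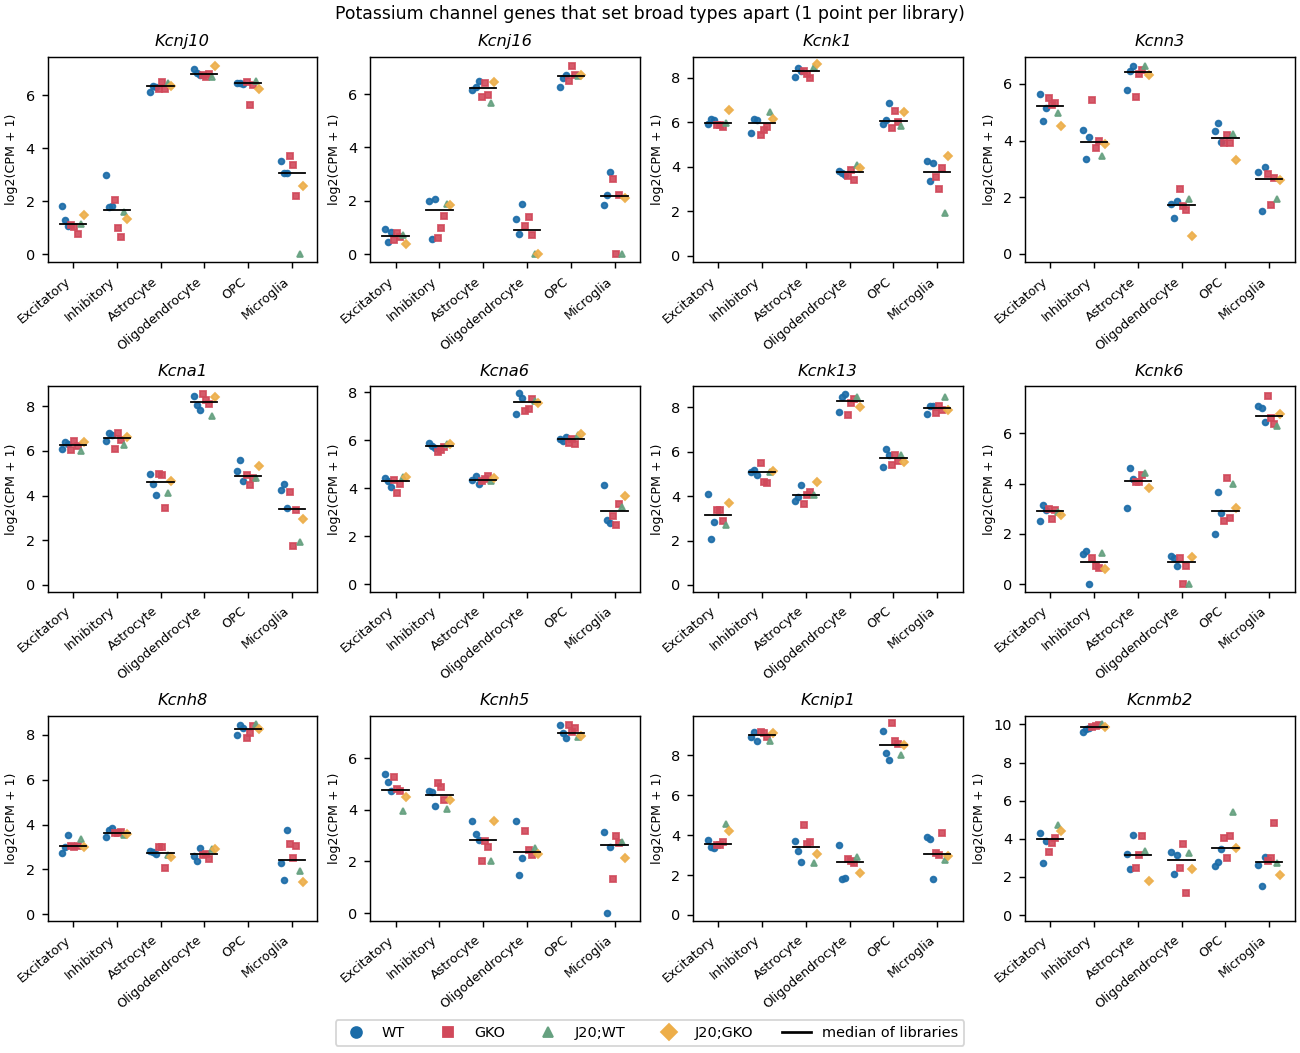
Levels of 12 potassium channel genes (log2 of CPM + 1) in the 6 broad types; each point is 1 of the 8 mice and each bar the median. The oligodendrocyte points of Kcna1 and Kcna6, the OPC points of Kcnh8 and Kcnh5 and the microglia points of Kcnk6 lie above those of every other type.

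The inward rectifier Kcnj10 (Kir4.1), the main glial channel for potassium uptake, was present in the 3 macroglial types and low elsewhere. It had 69.1, 79.8 and 88.5 CPM in astrocytes, 101.8, 109.8 and 134.9 in oligodendrocytes and 49.1, 86.3 and 92.3 in OPCs. Excitatory neurons had 0.694 to 2.52 CPM, inhibitory neurons 0.578 to 6.93 and microglia 0 to 12.2. The log2 differences were 2.75 ± 0.117, 3.49 ± 0.106 and 2.72 ± 0.147 for the 3 macroglial types (adjusted p = 6.46e-26, 2.85e-32 and 1.31e-21) and -1.59 ± 0.292 in microglia (adjusted p = 4.65e-06). No mouse's oligodendrocyte value fell among the astrocyte or OPC values.

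Kcnj16 (Kir5.1), which forms mixed channels with Kir4.1, was found in only 2 of those 3 types. Astrocytes had 49.5 to 89.2 CPM and OPCs 76.6 to 129.8, but oligodendrocytes 0 to 2.66, no more than the 0.308 to 3.17 of neurons. Its log2 difference was 4.40 ± 0.117 in astrocytes, 4.91 ± 0.136 in OPCs and -2.69 ± 0.303 in oligodendrocytes (adjusted p = 6.41e-37, 1.08e-35 and 2.59e-11). Kcnj2 (Kir2.1) lies 38195 bases from Kcnj16 on chromosome 11 and was instead higher in microglia, at 1.84, 13.3 and 22.6 CPM (log2 2.52 ± 0.315, adjusted p = 5.1e-10), although the lowest microglia library lay within the 0 to 11.3 CPM of the other types.

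Kcnj9 (Kir3.3), a G-protein-gated channel subunit of neurons, is the neighbour of Kcnj10 on chromosome 1, read from the opposite strand with 11891 bases between the genes. It had 37.1 to 57.8 CPM in excitatory and 21.9 to 40.5 in inhibitory neurons, 4.49 to 14.1 in astrocytes and 4.93 to 8.97 in oligodendrocytes. The pair is thus split between neurons and macroglia, and their promoters are given with the marks described above.
Kcnj9 promoter, chr1:172329273-172329572, minus strand: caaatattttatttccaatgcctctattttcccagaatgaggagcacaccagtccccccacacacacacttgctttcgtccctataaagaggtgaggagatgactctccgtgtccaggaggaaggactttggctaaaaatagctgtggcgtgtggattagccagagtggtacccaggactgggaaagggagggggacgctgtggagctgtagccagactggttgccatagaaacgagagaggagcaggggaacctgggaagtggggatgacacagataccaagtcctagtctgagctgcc
Kcnj10 promoter, chr1:172340960-172341259, plus strand: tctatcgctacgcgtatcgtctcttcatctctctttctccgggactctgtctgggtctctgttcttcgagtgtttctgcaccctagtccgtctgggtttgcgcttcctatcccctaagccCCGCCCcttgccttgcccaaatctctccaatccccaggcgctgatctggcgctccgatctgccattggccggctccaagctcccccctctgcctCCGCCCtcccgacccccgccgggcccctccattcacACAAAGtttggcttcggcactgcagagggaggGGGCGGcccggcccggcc

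The Kcnj10 promoter holds 3 GC boxes, 1 SOX core and 21 CG dinucleotides, and the Kcnj9 promoter 5 CG dinucleotides and neither motif. The other G-protein-gated subunits, Kcnj3 and Kcnj6, had 355 to 515 and 351 to 454 CPM in excitatory neurons and 194 to 292 and 125 to 197 in inhibitory neurons. Only Kcnj6 passed the fold for that comparison (log2 -1.52 ± 0.109, adjusted p = 6.71e-17). Kcnj3 differed by -0.85 ± 0.095 and Kcnj9 by -0.73 ± 0.099.

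The tandem-pore channels separated the glial types from each other. Kcnk1 (TWIK-1), a leak channel, had 256, 318 and 389 CPM in astrocytes and 53.8 to 94.1 in excitatory neurons, and at most 116.4 in OPCs (log2 3.21 ± 0.067, adjusted p = 9.99e-42). Kcnk2 (TREK-1), a leak channel opened by stretch and lipids, was higher in both astrocytes and OPCs, with 170 to 311 and 182 to 250.2 CPM against 67.0 to 109.7 in excitatory neurons (log2 2.07 ± 0.071 and 1.79 ± 0.082, adjusted p = 6.81e-32 and 9.39e-26).

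Microglia were lower for most channels, but 3 tandem-pore genes were called higher there. Not all of these were particular to microglia. Kcnk6 (TWIK-2) had 76.3, 102.2 and 179 CPM in microglia and 0 to 23.7 in every other broad type (log2 4.79 ± 0.152, adjusted p = 1.66e-33). Kcnk13 (THIK-1), known as the resting potassium conductance of microglia, had 208, 251 and 353 CPM there (log2 2.59 ± 0.166, adjusted p = 5.82e-17). It was as abundant in oligodendrocytes, at 204, 314 and 393 CPM (log2 3.21 ± 0.132, adjusted p = 3.97e-23), while astrocytes had 11.5 to 24.0 and excitatory neurons 3.22 to 16.1. Its close relative Kcnk12 (THIK-2) was at 57.1 to 89.3 CPM in microglia and 2.53 to 7.65 in oligodendrocytes (log2 2.65 ± 0.115 for microglia, adjusted p = 1.86e-27). Of the voltage-gated genes Kcnd1 was also higher in microglia, at 11.7 to 42.4 CPM (log2 2.43 ± 0.21, adjusted p = 3.52e-15). The Kcnk13 promoter is given because the gene is abundant in 2 glial types.
Kcnk13 promoter, chr12:99964249-99964548, plus strand: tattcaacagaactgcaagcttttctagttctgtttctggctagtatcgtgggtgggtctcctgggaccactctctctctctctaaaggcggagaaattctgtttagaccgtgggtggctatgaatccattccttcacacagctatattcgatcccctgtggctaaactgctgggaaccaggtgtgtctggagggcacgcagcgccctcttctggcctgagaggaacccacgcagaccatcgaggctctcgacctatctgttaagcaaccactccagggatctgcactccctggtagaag

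It holds no GC box and no SOX core, and 9 CG dinucleotides. Kcnk3 and Kcnk9 (TASK-1 and TASK-3), acid-sensitive leak channels, went in opposite directions between neuron types. Kcnk3 was higher in inhibitory neurons (log2 1.32 ± 0.137, adjusted p = 3.88e-12) and Kcnk9 in excitatory neurons (log2 -1.78 ± 0.14, adjusted p = 2.93e-16).

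Auxiliary subunits gave the largest differences between neuron types. Kcnmb2, the β2 subunit that inactivates large-conductance calcium-activated channels, had 783, 929 and 1036 CPM in inhibitory and 5.73, 14.7 and 25.5 in excitatory neurons (log2 5.93 ± 0.197, adjusted p = 4.13e-26). Kcnip1, a calcium sensor that binds Kv4 channels, had 420.2, 523 and 584 CPM against 9.27, 10.9 and 22.8 (log2 5.23 ± 0.177, adjusted p = 3.69e-26). Inhibitory values were more than an order of magnitude above excitatory ones in every mouse. Kcnip1 was also at 216 to 779 CPM in OPCs. Kcnmb1 lies inside Kcnip1 on the opposite strand and had 20 UMIs in all named types.

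The other Kv4-binding subunits were highest in excitatory neurons (Kcnip2 and Kcnip4) or OPCs (Kcnip3). Kcnip4 had 6888 to 9363 CPM in excitatory and 1255 to 2765 in inhibitory neurons (log2 -2.22 ± 0.174, adjusted p = 1.45e-15). Kcnip2 was lower in inhibitory neurons as well (log2 -1.42 ± 0.114, adjusted p = 3.11e-15). Kcnip3 was highest in OPCs, at 350 to 1207 CPM, against 156 to 341 in excitatory and 21.5 to 45.4 in inhibitory neurons (log2 3.34 ± 0.124 for OPCs, adjusted p = 1.11e-24). The Kv1 partner Kcnab1 had 337 to 518 CPM in excitatory neurons and 359 to 626 in oligodendrocytes, where its partners Kcna1 and Kcna6 were highest (log2 1.65 ± 0.058, adjusted p = 1.94e-31).

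Excitatory neurons were divided into dentate granule (5570 nuclei), CA1 (2499), CA3 (986), CA2 (139), subiculum (786) and deep-layer (703) groups, and the 4 comparisons below used the same within-mouse test on 65 of the channel genes. Further subclusters of 955 and 346 nuclei stayed in the broad excitatory sums but were given no subtype name. CA1 differed from dentate granule neurons in 26 genes, 10 higher and 16 lower, where 15.0% of 12949 genes were called, 8.44% higher and 6.54% lower. CA3 differed from dentate granule neurons in 19, 5 higher and 14 lower (16.3% of all genes, 9.46% higher and 6.86% lower). Between CA3 and CA1 there were 22, 10 higher and 12 lower in CA3 (9.47% of all genes, 4.99% higher and 4.48% lower), and between subiculum and CA1 17, 9 higher and 8 lower (8.56%, 5.58% higher and 2.98% lower). The median differences of the 65 genes were -0.14, -0.23, -0.09 and 0.29, against -0.01, -0.01, -0.01 and 0.00 over all genes. Of the 16 other potassium-handling genes tested, 1 was higher in each comparison, and 3, 2, 1 and 1 were lower.

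**Figure D3:**
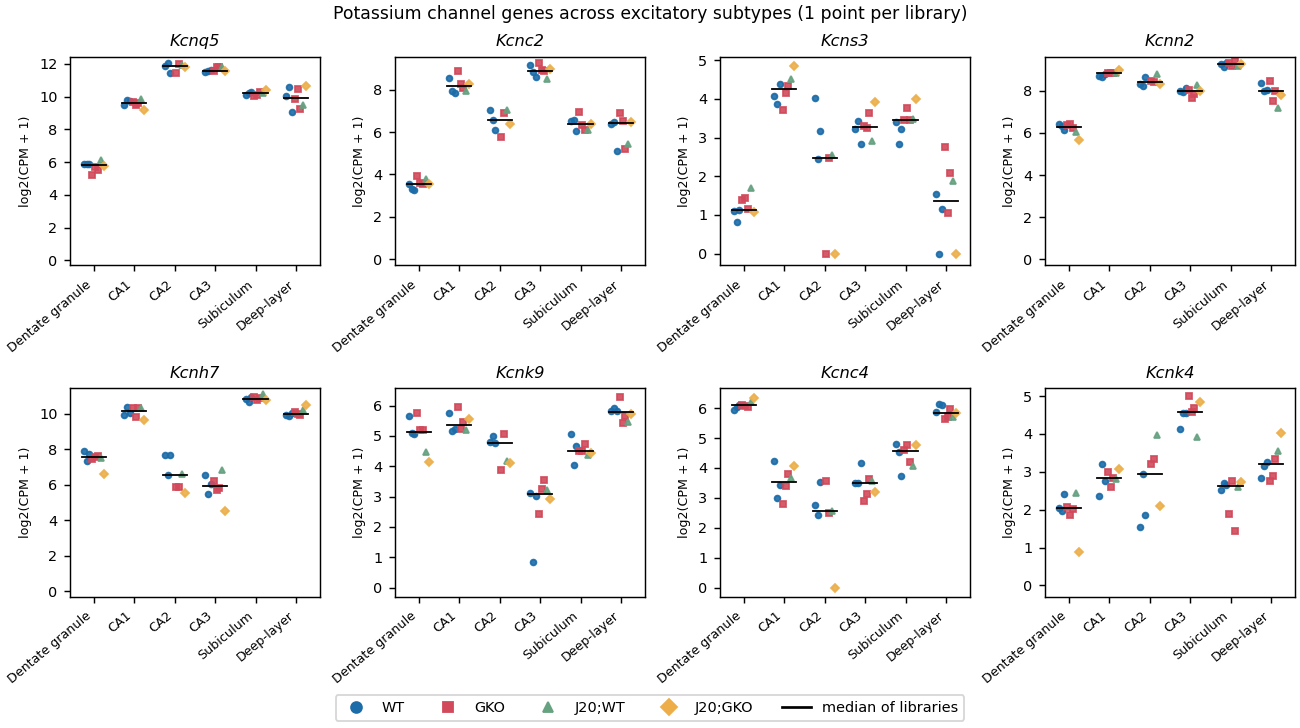
Levels of 8 potassium channel genes (log2 of CPM + 1) in the excitatory subtypes; each point is 1 mouse of the marked group (8 mice, 7 for CA2) and each bar the median. Kcnq5 rises from dentate granule to CA1 to CA2 and CA3, and Kcnh7 is high in CA1 and subiculum and low in CA2 and CA3.

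Among voltage-gated genes, the M-current subunit Kcnq5 had 36.3, 55.5 and 69.5 CPM in dentate granule neurons, 572, 794 and 904 in CA1 and 2917, 3080 and 3614 in CA3. The 3 subtypes did not overlap in any mouse, and CA2, with 2721 to 4287 CPM, covered the CA3 range. The log2 difference from dentate granule neurons was 3.90 ± 0.175 in CA1 and 5.97 ± 0.19 in CA3, and CA3 exceeded CA1 by 2.07 ± 0.157 (adjusted p = 1.14e-20, 4.64e-25 and 1.5e-13). Its relative Kcnq3 was not called in any of the 4 comparisons, and its differences lay between -0.31 and 0.36.

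The Kv3 genes were distributed differently from one another. Kcnc2 was at 8.49 to 14.0 CPM in dentate granule neurons, 228 to 471 in CA1 and 359 to 607 in CA3 (log2 4.83 ± 0.125 and 5.51 ± 0.127 over dentate granule, adjusted p = 8.66e-31 and 1.61e-32). Kcnc4 ran the other way, at 59.9 to 79.9 CPM in dentate granule, 5.95 to 17.8 in CA1 and 6.38 to 16.8 in CA3 neurons (log2 -2.56 ± 0.124 and -2.67 ± 0.143, adjusted p = 6.93e-23 and 3.19e-21). Kcnc1 was low in CA1 alone of these 3, at 19.2 to 32.7 CPM against 75.5 to 103.7 in dentate granule and 78.4 to 120.7 in CA3 neurons (log2 -1.85 ± 0.128 for CA1 minus dentate granule and 2.04 ± 0.134 for CA3 minus CA1, adjusted p = 1.02e-15 and 6.94e-16).

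Kcnh7, an ether-à-go-go related gene, marked the CA1 and subicular side. It had 796, 1153 and 1306 CPM in CA1 and 1607, 1842 and 2170 in subiculum, against 21.8, 60.8 and 111.2 in CA3 and 97.6 to 233 in dentate granule neurons. CA3 was below CA1 by 4.12 ± 0.206 on the log2 scale (adjusted p = 1.64e-18), and CA1 above dentate granule neurons by 2.66 ± 0.184 (adjusted p = 4.56e-15). Kcnd2 was lower in CA3 than in CA1, at 1091 to 1625 against 2295 to 3754 CPM (log2 -1.20 ± 0.077, adjusted p = 6.77e-19). Kcna1 was higher in CA3, at 71.4 to 125.7 against 34.2 to 49.5 (log2 1.43 ± 0.087, adjusted p = 1.57e-19).

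Among the modifiers, Kcns3 was at 0.766 to 2.23 CPM in dentate granule and 12.2 to 27.5 in CA1 neurons (log2 3.69 ± 0.197, adjusted p = 1.13e-22), and Kcnf1 at 14.9 to 36.3 in subiculum and 1.81 to 8.71 in CA1 (log2 1.90 ± 0.207, adjusted p = 2.16e-10). Kcng3 was 1.52 ± 0.329 higher in CA3 than in CA1 (adjusted p = 0.000252), with 7.86 to 15.3 against 2.87 to 6.73 CPM. Of the calcium- and sodium-activated genes, Kcnn2 had 49.5 to 85.9 CPM in dentate granule, 404 to 507 in CA1 and 204 to 311 in CA3 neurons (log2 2.65 ± 0.108 and 1.84 ± 0.108 over dentate granule, adjusted p = 7.27e-24 and 1.66e-18). The subtypes did not overlap. Kcnt1 followed the order dentate granule, CA3, CA1 and subiculum, with medians of 3.18, 6.47, 18.7 and 45.1 CPM. Kcnma1 was called in none of the 4 comparisons, its differences lying between 0.25 and 0.60.

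The inward rectifier Kcnj4 was lower in CA3 (4.25 to 12.2 CPM) than in dentate granule neurons (31.4 to 61.2), by 2.61 ± 0.139 on the log2 scale (log2 -2.61, adjusted p = 1.34e-22). The G-protein-gated Kcnj9 was low in CA3 too, at 7.36 to 23.6 CPM against 51.1 to 75.7 in dentate granule and 27.4 to 47.7 in CA1 neurons (log2 -1.96 ± 0.111 and -1.25 ± 0.118, adjusted p = 1.89e-21 and 5.83e-13). Its partner Kcnj6 was called in none of the 4. Among leak channels, Kcnk4 (TRAAK) had its highest median in CA3, at 14.0 to 30.9 CPM against at most 4.46 in dentate granule neurons (log2 2.89 ± 0.176, adjusted p = 2.89e-20). Kcnk9 was lowest in CA3, at 0.786 to 10.6 CPM against 35.1 to 60.6 in CA1 (log2 -2.61 ± 0.181, adjusted p = 5.77e-16). Kcnk2 had 12.1 to 39.2 CPM in subiculum and 63.7 to 113 in CA1 (log2 -1.92 ± 0.158, adjusted p = 8.63e-13). CA2, which was in no test, had 158 to 416 CPM of Kcnk2, above every library of the other excitatory subtypes.

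Of the auxiliary genes, Kcnab1 had its highest median in CA1, at 435 to 970.4 CPM, against 110 to 265 in subiculum and 216 to 301 in CA3 (log2 -1.97 ± 0.138 and -1.31 ± 0.132 relative to CA1, adjusted p = 1.64e-14 and 1.48e-10). Kcnip2 fell in the subiculum, at 23.7 to 68.1 CPM against 83.2 to 193 in CA1 (log2 -1.83 ± 0.108, adjusted p = 1.44e-18), while Kcnip1 and Kcnab3 were higher there by 1.99 ± 0.327 and 1.79 ± 0.214 (adjusted p = 5.1e-06 and 8.3e-10). Kcnip4 was called in none of the 4 comparisons. In deep-layer neurons, which were in no test, it had 793 to 2985 CPM, below the 4843 to 12220 of all other excitatory subtypes.

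Interneurons were divided into Pvalb (403 nuclei), Sst (385), Lamp5 (283), Cnr1 (226) and Vip (217) groups, each with 16 to 83 nuclei per mouse, and 42 channel genes could be tested. Against the mean of the other 4 groups, 10 genes were higher and 6 lower in Pvalb neurons, where 7.82% of 8342 genes were called, 3.88% higher and 3.93% lower. The counts were 4 and 7 in Sst neurons (5.47% of all genes, 2.83% higher and 2.64% lower) and 7 and 5 in Vip neurons (7.44%, 4.0% and 3.44%). They were 7 and 5 in Cnr1 neurons (5.45%, 3.03% and 2.42%) and 6 and 6 in Lamp5 neurons (8.25%, 3.88% and 4.36%). The 5 medians of the 42 genes lay between -0.04 and 0.23, and those of all genes between -0.01 and 0.01. Of the 14 other potassium-handling genes tested, none was higher and 2 were lower in Pvalb neurons, 1 was higher in Sst, 1 higher and 1 lower in Vip, and 1 higher in Lamp5 neurons, and Cnr1 neurons had none.

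**Figure D4:**
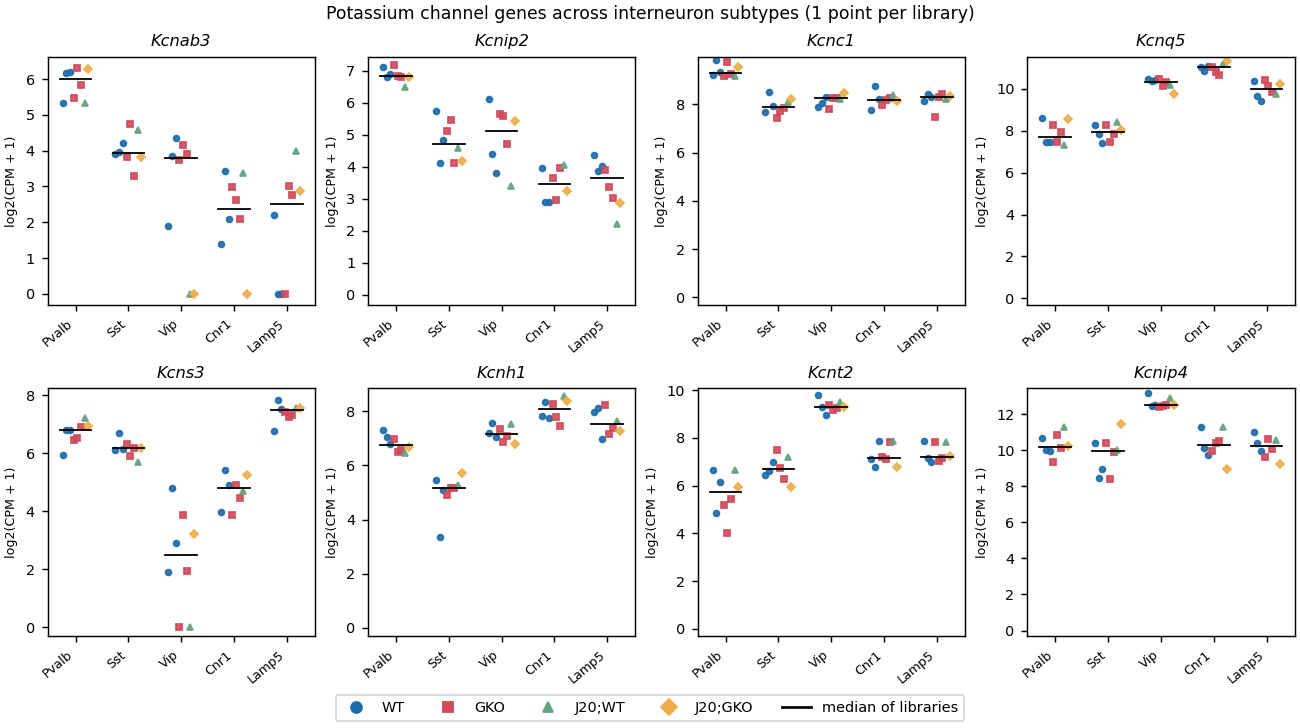
Levels of 8 potassium channel genes (log2 of CPM + 1) in the 5 interneuron groups; each point is 1 of the 8 mice and each bar the median. Kcnab3, Kcnip2 and Kcnc1 are highest in Pvalb neurons, and Kcnt2 and Kcnip4 in Vip neurons.

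Pvalb neurons, known for fast firing, were higher in the Kv3 gene Kcnc1 and the Kv1 gene Kcna1. Kcnc1 measured 572, 634 and 918 CPM in Pvalb neurons and 171 to 437 in the other 4 groups (log2 1.27 ± 0.068, adjusted p = 1.34e-24), with no overlap between Pvalb and the others. Kcna1 had 127 to 211 CPM in Pvalb neurons and at most 100.9 elsewhere (log2 1.62 ± 0.099, adjusted p = 8.06e-22). Kcnab3, a β subunit of Kv1 channels, had 39.1, 63.4 and 77.8 CPM against 0 to 25.6 (log2 2.91 ± 0.189, adjusted p = 1.46e-20), and the Kv4 partner Kcnip2 88.8 to 144 against 3.69 to 68.0 (log2 2.60 ± 0.122, adjusted p = 2.27e-27). The large-conductance Kcnma1 was higher as well (log2 1.19 ± 0.067, adjusted p = 2.88e-23).

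The M-current gene Kcnq5 was low in Pvalb and Sst neurons. It had 158 to 392 CPM in Pvalb and 169 to 339 in Sst neurons, against 872 to 1426 in Vip, 1640 to 2558 in Cnr1 and 695 to 1384 in Lamp5 neurons. Every value of the first 2 groups lay below every value of the other 3. The log2 differences were -1.90 ± 0.126 in Pvalb, -1.92 ± 0.128 in Sst and 2.03 ± 0.097 in Cnr1 neurons (adjusted p = 2.71e-15, 4.52e-15 and 4.42e-19).

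Sst neurons were set apart by ether-à-go-go genes. Kcnh5 was at 22.9 to 99.8 CPM there and 0 to 40.6 in the other groups (log2 2.06 ± 0.203, adjusted p = 2.49e-12), with overlap. Kcnh1 was at 9.19 to 51.1 CPM against 86.4 to 382 (log2 -2.35 ± 0.161, adjusted p = 1.46e-14), without overlap. The apamin-sensitive Kcnn2 was low there as well, at 43.3 to 94.6 CPM (log2 -2.32 ± 0.123, adjusted p = 6.36e-21). Kcnk10 and Kcnk12 passed the fold narrowly in Sst neurons, at 1.07 ± 0.208 and 1.02 ± 0.211 (adjusted p = 5.83e-05 and 9.9e-05), and fell under it, to 0.93 and 0.85 at the lowest, when single mice were left out.

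Vip neurons had the most sodium-activated Kcnt2, at 496, 623 and 878 CPM against 15.2 to 234 in the other groups (log2 2.55 ± 0.153, adjusted p = 2.42e-14), and the most Kcnip4, at 5301 to 9291 CPM against 337 to 2773 (log2 2.36 ± 0.221, adjusted p = 5.87e-10). Both were clear of every other group. Kcns3, in contrast, was at 0 to 27.0 CPM in Vip and 107 to 229 in Lamp5 neurons (log2 -3.30 ± 0.273 and 2.31 ± 0.12, adjusted p = 6.65e-16 and 2.21e-25). Lamp5 neurons also held the most Kcnh7, at 963 to 1602 CPM (log2 1.93 ± 0.1, adjusted p = 2.56e-18), and the least Kcnc2, at 329 to 454 CPM against 456 to 2576 (log2 -1.92 ± 0.091, adjusted p = 2.34e-27). Cnr1 neurons led in Kcnip1, at 769 to 1366 CPM (log2 1.25 ± 0.12, adjusted p = 7.04e-10), and had the least Kcnk3, at 3.13 to 19.9 (log2 -1.53 ± 0.25, adjusted p = 1.34e-06).

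To ask whether channel expression differed with GSAP, the 3 mice labelled GKO were compared with the 3 WT mice within each of 9 types by edgeR's quasi-likelihood test, with Benjamini-Hochberg adjustment over all genes and a log2 threshold of 0.3. No channel gene was called in any type, and 0.0% of all genes were. DESeq2 called none either. Between 24 (microglia) and 71 (excitatory neurons) channel genes were tested, with median standard errors of 0.16 to 0.33 on the log2 scale. The median difference of the tested channel genes ranged from -0.23 in microglia to 0.06 in CA1, against -0.002 to 0.009 over all genes. At an unadjusted p under 0.05 there were 3 genes in excitatory neurons (1.4% of all genes), 2 in inhibitory neurons (1.45%), 2 in astrocytes (1.47%), none in oligodendrocytes (1.4%), 2 in OPCs (2.34%), 1 in microglia (3.13%), 2 in dentate granule (1.56%), none in CA1 (1.25%) and 4 in CA3 neurons (2.12%). None of the 13 to 18 other potassium-handling genes tested was called in any type.

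**Figure D5:**
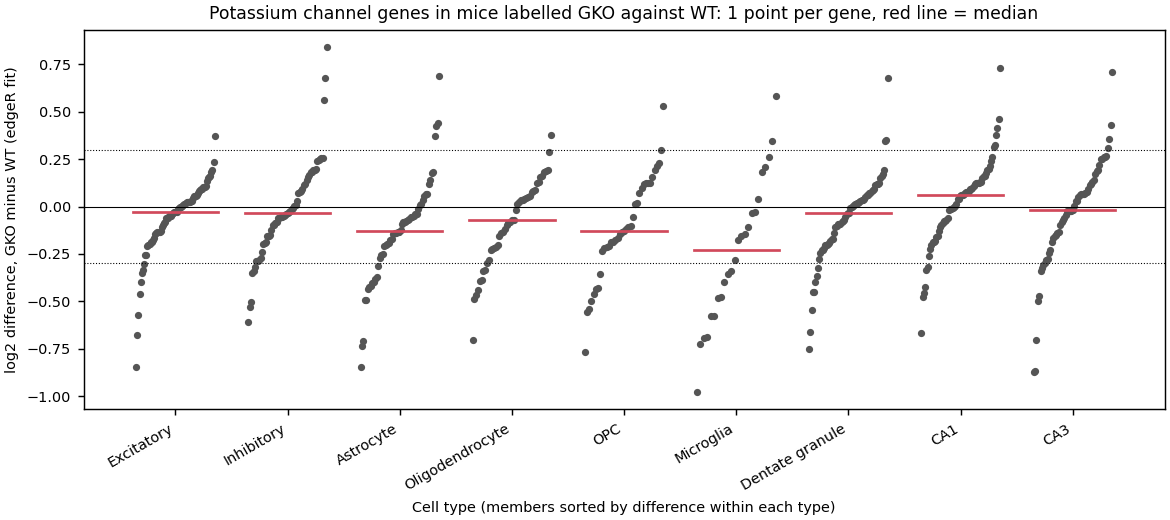
Log2 difference between the 3 GKO and 3 WT mice for every tested potassium channel gene in 9 types, sorted within each type; the red line is the median and the dotted lines lie at 0.3 and -0.3. The points form smooth curves around 0 in every type, with wider tails in microglia than in excitatory neurons.

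The genes with the smallest p in each type illustrate the spread. In dentate granule neurons, Kcnq5 had 56.9, 59.0 and 58.2 CPM in WT 1 to 3 and 36.3, 52.2 and 44.9 in GKO 1 to 3. The groups did not overlap, and the log2 difference was -0.37 ± 0.118 (unadjusted p = 0.00843, adjusted p = 1.0 by edgeR). It was -0.64 in the first date set and -0.28 in the second. Kcnj2, the Kir2.1 gene, had 3.34, 3.22 and 3.52 CPM in WT and 2.83, 2.12 and 1.78 in GKO excitatory neurons (log2 -0.57 ± 0.233, unadjusted p = 0.0359 by edgeR; -0.23 and -0.79 within the date sets). In CA3, Kcnj4 had 7.76, 8.65 and 12.2 CPM in WT and 4.91, 4.25 and 6.06 in GKO (log2 -0.87 ± 0.317, unadjusted p = 0.0143 by edgeR). In microglia, Kcnip3 had 132, 178 and 170 CPM in WT and 113, 104 and 124 in GKO (log2 -0.48 ± 0.184, unadjusted p = 0.0201, adjusted p = 0.999 by edgeR). Groups did not overlap for 9 of the 83 channel genes with at least 10 UMIs in excitatory neurons, where 5.96% of all such genes did not, for 10 of 72 in inhibitory neurons (6.87%) and for 6 of 74 in astrocytes (6.78%). The counts were 0 of 70 in oligodendrocytes (6.89%), 6 of 61 in OPCs (7.9%) and 4 of 56 in microglia (8.54%), and 6 of 74 in dentate granule (6.49%), 3 of 72 in CA1 (6.13%) and 7 of 68 in CA3 neurons (7.08%).

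In OPCs the Kv4-binding genes depended on the model. Kcnip4 had 552, 496 and 284 CPM in WT and 311, 235 and 238 in GKO (log2 -0.76 ± 0.229, unadjusted p = 0.00512, adjusted p = 1.0 by edgeR), with overlap between the groups. With the date set as a term, 3 channel genes were called (0.16% of all 9350 genes): Kcnip4 (log2 -0.77 ± 0.145, adjusted p = 0.0187), Kcnip1 (0.57 ± 0.111, adjusted p = 0.00547) and Kcnip3 (-0.47 ± 0.096, adjusted p = 0.0114). Kcnip1 had 596, 274 and 216 CPM in WT and 779, 419 and 381 in GKO, and Kcnip3 502, 1123 and 1207 in WT and 350, 744 and 952 in GKO. For Kcnip1 the first library of each group was the highest and for Kcnip3 the lowest, and these 2 libraries make up the first date set. Kcnip4 in OPCs lay at or below the neuronal reference described above. That reference was 15.9, 8.95 and 10.5% in the WT and 9.21, 8.28 and 10.0% in the GKO libraries. The part of leaked RNA in the Kcnip4 difference was not tested.

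The J20 pair had 1 mouse per genotype, so no test was possible, and the 2 libraries also came from different date sets. Intervals below are exact 95% Poisson intervals, which cover counting error only. In excitatory neurons 13 of 67 channel genes with at least 50 UMIs differed by more than 0.5 on the log2 scale, 7 higher and 6 lower in J20;GKO, where 19.0% of all genes did. Pairs of mice of the same genotype gave 4 to 13. Other types gave 3 of 43 genes in inhibitory neurons (15.4% of all genes), 10 of 25 in astrocytes (25.1%), 6 of 20 in oligodendrocytes (22.6%), 1 of 28 in OPCs (21.6%), 5 of 8 in microglia (26.1%), 14 of 52 in dentate granule (24.9%), 13 of 51 in CA1 (18.8%) and 14 of 41 in CA3 neurons (21.7%). Same-genotype pairs gave 4 to 20 in inhibitory neurons, 2 to 15 in astrocytes, 2 to 13 in oligodendrocytes and 1 to 11 in OPCs. They gave 1 to 4 in microglia, 3 to 17 in dentate granule, 6 to 17 in CA1 and 1 to 14 in CA3 neurons.

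In excitatory neurons Kcnip3 was at 341 CPM (interval 331 to 351) in J20;GKO and 190.4 (183 to 198) in J20;WT, a log2 ratio of 0.84. The 3 WT mice had 170.0 to 185 CPM and the 3 GKO mice 156 to 202. The J20;GKO library thus stood above all other 7. The same gene was at 609 CPM (584 to 635) against 258 (244 to 272) in dentate granule and 238 (223 to 254) against 124 (113 to 136) in CA1 neurons, but at 34.4 against 33.5 in inhibitory neurons. Kcnt2 was at 139 CPM (132 to 145) in J20;GKO and 224 (216 to 232) in J20;WT excitatory neurons, a log2 ratio of -0.69, with 193 to 229 in the other 6 mice. In CA3 neurons Kcnh7 was at 21.8 CPM (15.6 to 29.7) in J20;GKO and 111.2 (97.9 to 126) in J20;WT, where the other 6 mice had 43.7 to 93.1. Kcnk13 had the highest ratio in excitatory neurons, 1.10, from 11.9 (10.1 to 14.0) and 5.55 CPM (4.37 to 6.94), but mice of 1 genotype differed in it by up to 2.31. Kcnj2 and Kcng3 had ratios of -0.83 and -0.62, and Kcnab3 one of 0.73.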

How the data were processed

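Nuclei from the hippocampus of 8 mice were profiled by 10x single-nucleus RNA sequencing. The authors made the gene counts with Cell Ranger (build mm10, per the file headers and the submitters' processing notes) and deposited raw UMI counts per gene and barcode. Whether introns were counted, and whether strand was used, is not given in the sources used here, so reads of overlapping and antisense genes cannot be separated. The channel genes, families and gene lists were chosen with earlier results of these data known.

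Following the study's design, nuclei with at most 5% mitochondrial UMIs and 200 to 7500 genes were kept, normalised by SCTransform (sctransform 0.4.2) and integrated in Seurat 5.3.0 (R 4.3.3) on 3000 features without the channel genes, with 30 principal components and a resolution of 0.8. Excitatory and inhibitory nuclei were clustered again at resolutions of 0.3 and 0.1, chosen after seeing the clusters. The dropping of doublet-like subclusters was also chosen then. So was leaving unnamed the neuron-like clusters without a neuronal marker among their leading genes. Groups were named from marker lists. Scrublet (scanpy 1.11.5) worked in 6 of the 8 libraries, and its calls were removed only as an alternative. It did not work in WT 1 and GKO 1, which make up the first date set, so that alternative removed no nuclei there.

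UMIs were summed per mouse and type (at least 10 nuclei) and tested with edgeR 4.0.16 (TMM, filterByExpr, quasi-likelihood, Benjamini-Hochberg), with DESeq2 1.42.0 among the alternatives. The mouse was the replicate. In each comparison of types the text names up to 5 called genes per direction with the same sign in every mouse; in each genotype comparison the 3 smallest p were considered; in the J20 pair the 3 highest and 3 lowest ratios; other textbook members were added by family. Same-numbered WT and GKO libraries deviated together (r over 0.1 for every pair) in 6 of 9 types, and the replicate number was used as a block in an alternative fit. Differently numbered libraries of the second date set deviated together as well. In excitatory neurons r was 0.244 for WT 2 with GKO 3 and 0.2 for WT 3 with GKO 2. The same-numbered pairs of that set had 0.149 and 0.158, so the numbers do not establish pairs. Simulated counts with known changes were run only for CA1 minus dentate granule neurons and for GKO minus WT in excitatory neurons, each with edgeR and DESeq2. Total UMIs per library set the precision, and Poisson intervals cover counting error only. No genome build was converted, and protein sequences were not used here. The values of 3 channel genes are not reported here, although the genes are in the counts.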

Additional observations from a re-analysis of the deposited data

Results flagged for a closer look

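Values of single mice were compared for 129 combinations of a named gene and a comparison of types, and in 9 of them the highest or lowest mouse stood farther from the nearest other than Dixon's limit allows; chance gives about 1 in 20. The values are log2 differences between types within that mouse, with 0.5 UMIs added to each count, which sets the size where a count is 0. For Kcnk3 in astrocytes, GKO 3 was at -5.32 (nearest mouse -2.86). For Kcns2 in OPCs, GKO 2 was at -0.08 (nearest -1.90), and for Kcnn2 in microglia, J20;WT was at -6.65 (nearest -3.504), where its library listed 0 UMIs for the gene. For Kcnn2 in CA1 minus dentate granule neurons, J20;GKO was at 3.35 (nearest 2.79). In CA3 minus dentate granule neurons, J20;WT was at 4.83 for Kcnc2 (nearest 5.42) and at -5.68 for Kcnh4 (nearest -3.36). For Kcna1 in Pvalb neurons, GKO 1 was at 2.32 (nearest 1.78). In Sst neurons, WT 2 was at -4.44 for Kcnh1 (nearest -2.80) and J20;WT at -1.20 for Kcnq5 (nearest -1.74). Genes were named only where every mouse had the same sign, so the shared sign of these differences follows from the selection. No cause was tested.

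Kcne2, an auxiliary subunit known from choroid plexus and stomach, was concentrated in nuclei outside the named types. In an unnamed group of 242 nuclei led by Ttr, Otx2os1 and Col8a1 it had 156 UMIs, or 82.6 CPM (exact 95% Poisson interval 70.1 to 96.6), against 10.4 CPM in mural cells, the highest named type. The 8 libraries ranged from 0 to 155 CPM in that group, and no comparison used it.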

How the results depend on the processing

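For the 14 comparisons of types, all 229 recalculations (scaling, gene filter, nucleus filter, doublets, DESeq2, no mouse block, each mouse left out, the J20 mice left out, and the unnamed Gad1 cluster added, the last chosen after seeing the data) kept the count of called channel genes within 1.5 times. Of 2629 values of single named genes, 2615 kept direction and call and none changed sign. In the comparisons of types the genes were named for a call and the same sign in every mouse, so this steadiness was partly built in. Kcnk10 and Kcnk12 in Sst and Kcnh7 and Kcnq5 in Vip neurons fell under the log2 threshold of 1 in 10 of them, with values of 0.85 to 0.99 and, for Kcnh7, -0.93 to -0.96. Size factors moved the median of all genes by more than 0.1 only with library size alone, to 0.07 in microglia and -0.19 in oligodendrocytes. For GKO against WT, OPCs gave 3 called genes with the date set as a term and 3 with the replicate block (18 of all genes), where Kcnip1 was at 0.58, Kcnip3 at -0.48 and Kcnip4 at -0.73 (edgeR, adjusted p = 0.00113, 0.00102 and 0.000292). In OPCs the same-numbered libraries correlated at 0.392, 0.082 and 0.138. WT 2 with GKO 3 gave 0.135 and WT 3 with GKO 2 gave 0.141. The numbers were therefore not taken as pairs, and the cause was not tested. The block and the other alternatives left the count at 0 in the other 8 types. For the J20 pair, mean UMIs per nucleus in place of CPM shifted the median of all genes up by 0.23 to 0.58, and the genes past the fold became 31 in excitatory, 26 in inhibitory, 25 in CA1, 25 in CA3 neurons and 5 in OPCs, with Kcnt2 at -0.29 and Kcnip3 at 1.25 in excitatory neurons. With 20 UMIs as the minimum, which admits more genes, they were 10 in inhibitory neurons, 20 in astrocytes, 13 in oligodendrocytes, 4 in OPCs, 10 in microglia and 22 in dentate granule neurons. OPCs gave 3 with TMM scaling and 0 with a prior count of 5. Depth limits the small sums: Vip neurons had 103790 to 367767 and microglia 354069 to 770975 UMIs per mouse, and a low gene there can be undetected at this depth.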

Other observations

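Small groups of nuclei that entered no test had high levels of some channel genes. In Cajal-Retzius neurons (216 nuclei), an early-born cell of the hippocampal fissure, Kcnb2 had 2873, 3748 and 4090 CPM (lowest, median and highest of 8 mice) and Kcnh7 3016, 3644 and 4649, where no library of the 6 broad types passed 707 and 799.7. Among the neuronal subtypes the highest libraries were 1821 CPM for Kcnb2, in Vip neurons, and 2170 for Kcnh7, in subiculum. Kcnq5 had 1768 to 2942 CPM in Cajal-Retzius neurons, within reach of the 2917 to 3614 of CA3 and the 1640 to 2558 of Cnr1 neurons, and Kcnq1 had 350 to 650.1. In mural cells, the contractile cells of small vessels, Kcnj8, the pore of their ATP-sensitive channel, had 380 to 967 CPM over 6 libraries with 170 UMIs in all, and at most 7.40 CPM in any library of the broad types. In fibroblasts Kcne4 had 10.4 to 76.8 CPM (26 UMIs) and Kcnk5 10.4 to 124 (61 UMIs), against at most 0.488 and 9.41 in the broad types.

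In dentate granule neurons the level of Kcnip1 was 4.43 to 8.27 CPM in the 6 mice without the transgene. The J20;WT mouse had 33.0 CPM and the J20;GKO mouse 28.8. The J20 mice were 6 and the others 7 months old, and the gene was chosen after its values were seen; no test was run, and age, transgene and library cannot be told apart. In dentate granule neurons Kcnmb2 had 52.9 and 41.7 CPM in the J20 mice and 10.1 to 33.5 in the others.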
